A study of Mus musculus with 28 samples.

Results

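The genes described here are 6 factors that bone marrow (BM) stromal cells provide to hematopoietic stem cells (HSCs) and their progeny: Cxcl12, Kitl, Vcam1, Il7, Csf1 and Thpo. They were chosen by name, and each matched 1 row of a table of 25251 genes, so that all 6 were present. Endothelial cells (ECs), mesenchymal stromal cells (MSCs) and BM mononuclear cells (MNCs) had been isolated from C57BL/6 mice aged 8 to 10 wk that were either Flt3+/+ or Flt3 ITD/ITD. Flt3 ITD/ITD mice carry on both alleles an internal tandem duplication knocked into Flt3, the gene of a receptor tyrosine kinase of blood progenitors, and the knock-in is present in all cells of the mouse. Digested bone was sorted for cells without CD45 and Ter119, of which CD31+ cells were the ECs and CD31- cells that were also CD166- and Sca1+ were the MSCs, and each library was made from 100 ECs, 100 MSCs or 200 MNCs of 1 mouse. Each genotype had 5 EC, 5 MSC and 4 MNC libraries, which gave 28. The MSC gate took only Sca1+ stroma, and the EC gate did not separate arteriolar from sinusoidal vessels.

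HSCs are kept in the marrow by a few secreted or membrane-bound signals from the cells that surround vessels and bone. Cxcl12 is a chemokine that retains HSCs through its receptor Cxcr4, and Kitl, or stem cell factor, is the ligand of the receptor Kit. Vcam1 is an adhesion molecule bound by the integrin of Itga4 and Itgb1. Il7 drives B cell progenitors, Csf1 drives monocytes and macrophages, and Thpo acts on HSCs and megakaryocytes. Perivascular stroma and endothelium are the best known marrow sources of Cxcl12 and Kitl, and the liver is a major source of circulating Thpo.

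The tables held 2 values per gene and library, an estimated read count and the RPKM, which is the count divided by transcript length and by library total. Total counts ranged from 6377013 to 33880743 per library. Counts of at most 3 in a library were treated as not above 0, and this floor and the intervals given cover counting error only because amplified reads are not independent molecules. The summed RPKM of 11 endothelial markers lay between 2280 and 3386 in ECs and at no more than 25.6 in MSCs, and that of 10 mesenchymal markers lay between 26422 and 30623 in MSCs and at no more than 96.8 in ECs. Alcam, which encodes CD166, had a mean RPKM of 0.433 in MSCs (highest library 3.94), and Ly6a, which encodes Sca1, had a mean of 2756. In MNCs the means were 6.96 and 122. ECs were sorted on neither marker and had means of 0.226 and 4759, so that these values do not test the MSC gate. Leukocyte markers summed to 382 in Flt3 ITD/ITD EC library 2 and 272 in Flt3 ITD/ITD MSC library 5, and to at most 22 and 109 in the other ECs and MSCs. Mean RPKM of Flt3 itself, wild type before mutant, was 0.006 and 0.408 for ECs, 0 and 0.086 for MSCs and 4.74 and 10.8 for MNCs. The knock-in lies within Flt3, so that its level does not check the genotype labels. In these bulk samples, fewer cells of a type and less RNA per cell cannot be told apart.

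Levels per length placed the 6 genes in different populations. Cxcl12 was abundant in both stromal populations, Kitl and Vcam1 were highest in ECs, Csf1 and Thpo were highest in MSCs, and Il7 varied widely within each population, with more than 3 counts in 4 of 10 EC, 8 of 10 MSC and 4 of 8 MNC libraries. The test between populations was the quasi-likelihood test of edgeR, applied to counts with the genotypes averaged, and a gene was called at a Benjamini-Hochberg adjusted p below 0.1 and a ratio of mean RPKM of at least 2. By this rule 4 of the 6 genes differed between ECs and MSCs, where 32.9% of all 16897 genes did, with 16.3% higher and 16.6% lower in ECs and 2 members each way. Between ECs and MNCs 5 of 6 were called, against 45% of all genes, and between MSCs and MNCs 5 of 6, against 44.3%. All 10 of these calls against MNCs were for higher expression in the stromal population, the direction of 23.1% of all genes in ECs and 22.2% in MSCs.

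**Figure D1:**
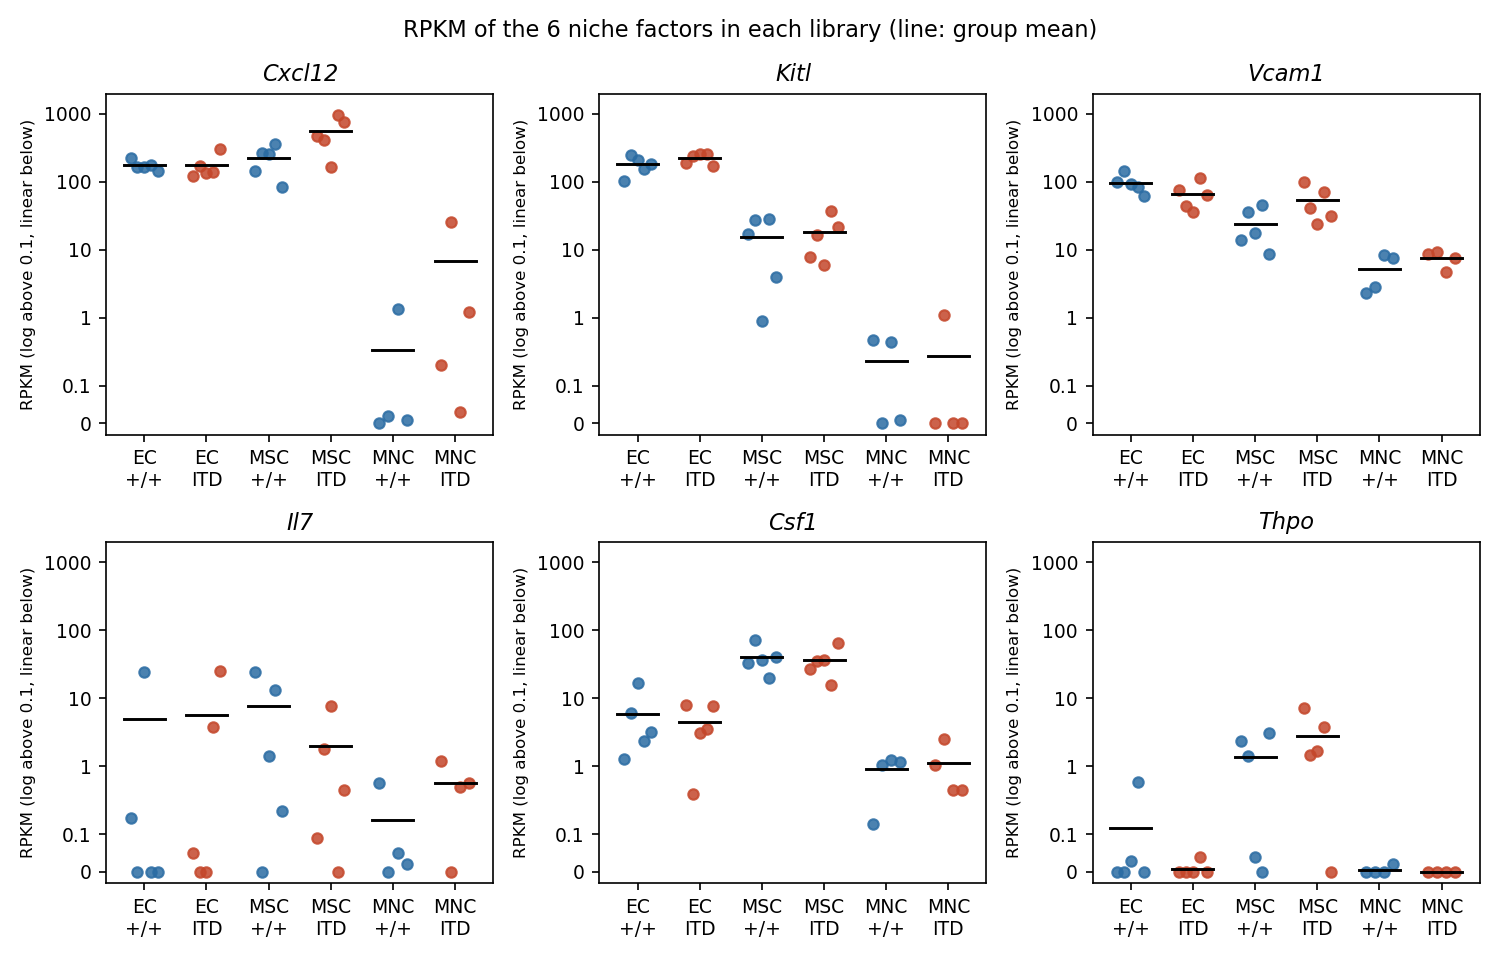
RPKM of each gene (vertical axis, logarithmic above 0.1 and linear below) in the 28 libraries, by population and genotype (blue, Flt3+/+; red, Flt3 ITD/ITD), with a line at each group mean. Kitl in ECs lies between 103.9 and 261 and above every other library, whereas Il7 within one group runs from 0 to 24.8.

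Cxcl12 had the highest mean RPKM of the 6 genes in MSCs (391), whereas Kitl was higher in ECs (202 against 175) and Vcam1 in MNCs (6.41 against 3.59). In Flt3+/+ ECs it had RPKM of 222, 163, 165, 177 and 146, and in Flt3 ITD/ITD ECs 122, 174, 137, 140 and 300. In Flt3+/+ MSCs the values were 144, 263, 259, 363 and 85.2, and in Flt3 ITD/ITD MSCs 475, 413, 163, 981 and 767. MSC libraries spread on both sides of the EC range, with 5 of 10 above every EC library and 1 below, and the highest 4 values of all were from Flt3 ITD/ITD MSCs. In MNCs, Cxcl12 had RPKM of 0, 0.02, 1.33 and 0.01 in Flt3+/+ mice and 0.2, 25.9, 0.03 and 1.22 in Flt3 ITD/ITD mice. The value of 25.9 came from 1322 counts in library 2, where no other MNC library held more than 43. That library also had the highest Kitl (RPKM 1.1) and Csf1 (2.48) of the 8 MNC libraries, the highest sum of mesenchymal markers (6.52, others 1 to 3.63) and the highest sum of osteoblast markers (10.8, others 0.33 to 5.38). Whether stromal cells contributed to it was not tested.

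Cxcl12 was higher in ECs than in MNCs by 7.34 on the log2 scale (SE 1.08, edgeR adjusted p = 4.45e-06) and higher in MSCs than in MNCs by 7.81 (SE 1.10, edgeR adjusted p = 2.21e-06). Leaving out Flt3 ITD/ITD MNC library 2 raised these differences to 9.31 and 9.78, and leaving out Flt3+/+ MNC library 3 raised them to 9.50 and 9.97. The other Flt3+/+ MNC libraries held at most 1 count each, so that the size of 9.50 and 9.97 rests on few reads. ECs and MSCs did not pass the test for Cxcl12 on counts, where the log2 difference of ECs from MSCs was -0.47 (SE 0.73, edgeR adjusted p = 0.678). The same comparison depended on the scale. Per length, mean RPKM was 391 ± 286 (SD, n = 10) in MSCs and 175 ± 52.0 in ECs, a ratio of 2.24 (permutation test, two-sided, p = 0.0147). On counts scaled to the library total (CPM), without length, the mean CPM values were 827 ± 646 and 640 ± 132, a ratio of 1.29 (permutation p = 0.427). Within Flt3+/+ libraries the ratio was 1.28 per length (exact permutation p = 0.341, n = 5 each) and 0.693 on CPM (exact permutation p = 0.103), so that the order of the populations changed with the scale. Within Flt3 ITD/ITD libraries MSCs were higher on both scales, by 3.21 (exact permutation p = 0.0238) and 1.95 (exact permutation p = 0.127).

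The scales differed because the length by which the authors divided each count differed between populations. That length follows from each count, its RPKM and the library total, and for Cxcl12 it was 3427, 3846, 3932, 4132 and 4028 bases in Flt3+/+ ECs and 3785, 3860, 4047, 3372 and 2964 bases in Flt3 ITD/ITD ECs. In MSCs it was 2009, 2064, 1999, 2214 and 2017 bases in Flt3+/+ and 1985, 2124, 1988, 2326 and 1979 bases in Flt3 ITD/ITD mice. Every EC library lay above every MSC library. The mean was 3739 ± 370 bases (SD, n = 10) in ECs and 2070 ± 117 in MSCs, a ratio of 1.81 (permutation test, two-sided, p = 6e-05; adjusted over the 4 genes with enough counts, 0.00024). Of 8182 genes with at least 100 counts in at least 5 libraries of each population, 8 (0.0978%) had ranges that did not overlap and means that differed at least 1.5-fold. The other 7 were Cpq, Daam2, Dlc1, Fn1, Nox4, Ppl and Rgs3. Gapdh, a housekeeping gene, had implied lengths of 1365 ± 1.83 bases in ECs and 1364 ± 1.56 bases in MSCs. This comparison was chosen after the values were seen. Genotypes did not differ in implied Cxcl12 length beyond their spread, with 3873 ± 271 bases in wild-type and 3606 ± 436 in mutant ECs (exact permutation p = 0.254, n = 5 each) and 2061 ± 89.2 and 2080 ± 150 in MSCs (exact permutation p = 0.778).

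**Figure D2:**
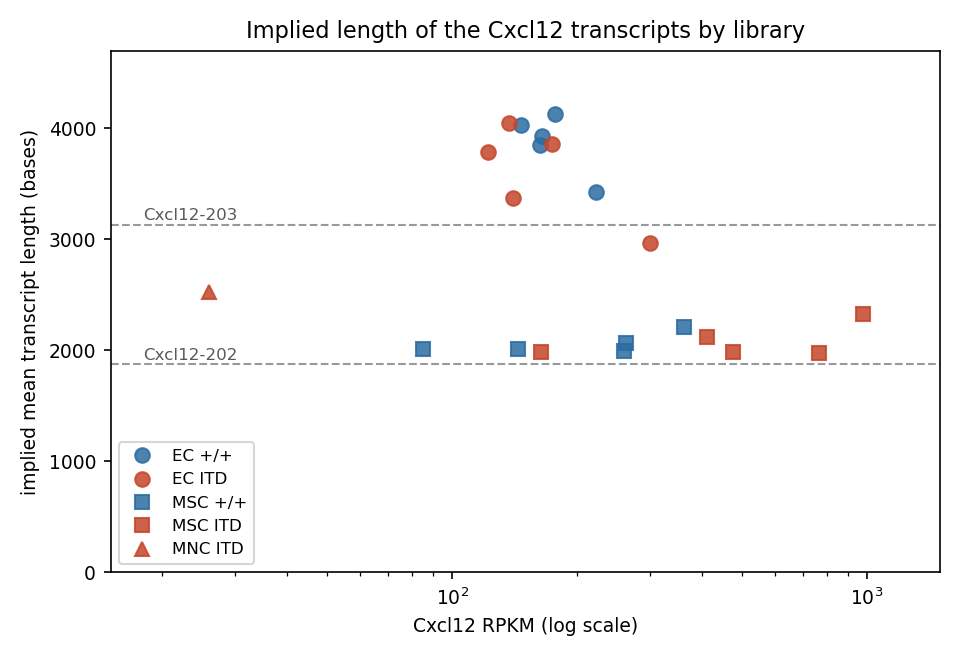
Implied mean length of the Cxcl12 transcripts in bases (vertical axis, from 0) against Cxcl12 RPKM (horizontal axis, log scale), 1 point per library with at least 100 counts (circles, ECs; squares, MSCs; triangle, MNCs; blue, Flt3+/+; red, Flt3 ITD/ITD). The 10 ECs lie between 2964 and 4132 bases and the 10 MSCs between 1979 and 2326, and dashed lines mark the annotated lengths of Cxcl12-202 (1878) and Cxcl12-203 (3132).

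Cxcl12 lies on chromosome 6 from 117168535 to 117181367 on the plus strand of GRCm38. The GENCODE annotation of that build, which is not the set of transcripts the authors used, gives it 3 protein-coding transcripts of 1878, 3132 and 5627 bases. All 10 MSC libraries lay between the length of the shortest and that of the next, whereas 9 of 10 EC libraries lay between the next and the longest. The 3 transcripts share 267 coding bases and part at the same position, after which each runs into its own coding end. These ends are shown because they are what the transcripts code differently, with the last 12 shared bases in lower case and the bases particular to each transcript, stop codon included, in capitals.
Cxcl12-202: gctttaaacaagTAA
Cxcl12-203: gctttaaacaagAGGCTCAAGATGTGA
Cxcl12-201: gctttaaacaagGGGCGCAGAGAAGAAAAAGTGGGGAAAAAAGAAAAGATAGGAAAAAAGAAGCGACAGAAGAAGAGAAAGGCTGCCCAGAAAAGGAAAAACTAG
The capitals come to 3, 15 and 93 bases, respectively. Cxcl12-202 stops within its exon at position 117173582, and the others splice on to end their coding sequence at 117178598 and 117176179. The reads themselves were not used here, so that the share of each transcript was not measured. Among ECs, the lowest implied length (2964) was that of Flt3 ITD/ITD library 5, which also had the highest Cxcl12 RPKM (300), the highest sum of mesenchymal markers (96.8) and the highest sum of osteoblast markers (211). Mural cell markers summed to between 153 and 1180 in ECs and to at most 162 in MSCs. The part of such cells in the EC values was not tested.

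Kitl was higher in ECs than in any other population. Its RPKM was 103.9, 251, 209, 157 and 185 in Flt3+/+ ECs and 188, 238, 261, 259 and 169 in Flt3 ITD/ITD ECs. In MSCs it was 17.0, 27.6, 0.9, 28.2 and 4.03 in Flt3+/+ and 7.76, 16.8, 5.9, 37.6 and 21.8 in Flt3 ITD/ITD mice. Every EC library lay above every MSC library, and values among Flt3+/+ MSCs spread over a wide range. In MNCs, 3 of 8 libraries held more than 3 counts of Kitl. The log2 difference was 3.30 between ECs and MSCs (SE 0.83, edgeR adjusted p = 0.00296) and 9.43 between ECs and MNCs (SE 1.22, edgeR adjusted p = 6.5e-07). MSCs were also above MNCs, by 6.13 (SE 1.06, edgeR adjusted p = 3.3e-05). Without Flt3 ITD/ITD MNC library 2, the differences from MNCs were 13.35 and 10.05. The Flt3 ITD/ITD MNC libraries then left held 0 counts of Kitl, so that the size of these differences is not measured. Kitl lies on chromosome 10 from 100015630 to 100100416, and its implied length of 4821 ± 118 bases in ECs and 4990 ± 238 in MSCs (permutation p = 0.0626) showed no such difference as that of Cxcl12.

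Vcam1, on the minus strand of chromosome 3 from 116109949 to 116129688 (GRCm38), was detected in all 28 libraries. In ECs its RPKM was 101, 145, 91.5, 84.7 and 62.2 in Flt3+/+ and 76.6, 43.4, 36.4, 114 and 63.4 in Flt3 ITD/ITD mice. In MSCs it was 14.0, 36.5, 17.5, 44.9 and 8.73 in Flt3+/+ and 100.2, 41.6, 23.8, 71.1 and 31.4 in Flt3 ITD/ITD mice. In MNCs it ranged from 2.28 to 9.26, so that only the lowest MSC library reached into the MNC range. ECs were above MNCs by 3.30 on the log2 scale (SE 0.42, edgeR adjusted p = 5.91e-07) and MSCs by 2.34 (SE 0.40, edgeR adjusted p = 3.38e-05). ECs were above MSCs by 0.96 (SE 0.36, edgeR adjusted p = 0.0399). This last call rested on the Flt3+/+ libraries, in which the difference was 1.92 (SE 0.55, edgeR adjusted p = 0.0247), whereas in Flt3 ITD/ITD libraries alone it was 0.08 (SE 0.42, edgeR adjusted p = 0.934). It was also lost when Flt3+/+ EC library 2, Flt3 ITD/ITD EC library 4 or Flt3 ITD/ITD MSC library 3 or 5 was left out, with log2 differences of 0.85, 0.86, 0.85 and 0.89 and edgeR adjusted p-values from 0.0685 to 0.0753, because the ratio of mean RPKM then fell under 2.

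Il7, on the minus strand of chromosome 3 from 7569994 to 7613760, varied widely between libraries of every stromal group. In ECs it was at RPKM of 24.2 in Flt3+/+ library 3 and 24.8 and 3.84 in Flt3 ITD/ITD libraries 5 and 4, and the other 7 libraries held at most 7 counts. In MSCs it was at 24.2, 0, 1.4, 13.1 and 0.22 in Flt3+/+ and 0.09, 1.81, 7.65, 0 and 0.44 in Flt3 ITD/ITD mice. Counts behind the high values were 976 and 1805 in ECs and 822 and 1067 in MSCs, so that they did not rest on single reads. Of the ECs with high Il7, Flt3+/+ library 3 had the lowest sum of mesenchymal markers of the population (1) and Flt3 ITD/ITD library 5 the highest (96.8). MNCs reached 1.18. The difference of ECs from MSCs was 0.22 (SE 1.54, edgeR adjusted p = 0.951) and that of MSCs from MNCs was 3.85 (SE 1.91, edgeR adjusted p = 0.105). The latter passed by DESeq2 (3.90, adjusted p = 0.0518) and by edgeR when any 1 of 12 libraries was left out, with adjusted p-values from 0.0692 to 0.0992. These were Flt3+/+ EC libraries 2 to 5, Flt3 ITD/ITD EC libraries 2, 3 and 5, Flt3+/+ MNC library 1, Flt3+/+ MSC libraries 2 and 5 and Flt3 ITD/ITD MSC libraries 1 and 4, and the log2 difference was then between 3.85 and 5.15. The difference of ECs from MNCs was called, at 4.07 (SE 1.93, edgeR adjusted p = 0.0876), but it rested on single libraries. It was lost without any one of 9 libraries, which were Flt3+/+ EC library 3 (0.64), Flt3 ITD/ITD EC library 5 (2.87), Flt3+/+ MNC libraries 2 (3.87), 3 (3.95) and 4 (3.89) and the 4 Flt3 ITD/ITD MNC libraries (3.86 to 4.43), and it rose to 5.36 without Flt3+/+ MNC library 1. It was not called within Flt3+/+ libraries (4.98, edgeR adjusted p = 0.202) or Flt3 ITD/ITD libraries alone (3.34, edgeR adjusted p = 0.337).

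Csf1, on the minus strand of chromosome 3 from 107741048 to 107760469, was highest in MSCs. Its RPKM was 33.3, 73.0, 36.5, 19.7 and 41.2 in Flt3+/+ MSCs and 26.8, 35.2, 36.8, 15.9 and 65.3 in Flt3 ITD/ITD MSCs. In ECs it was 1.26, 6.09, 16.6, 2.37 and 3.21 in Flt3+/+ and 8.03, 0.39, 3.07, 3.52 and 7.69 in Flt3 ITD/ITD mice. Flt3+/+ EC library 3, which was high for Il7 as well, was the only EC library above the lowest MSC library. In MNCs Csf1 lay between 0.14 and 2.48. MSCs were above ECs by 2.94 on the log2 scale (SE 0.56, edgeR adjusted p = 0.000191) and above MNCs by 5.13 (SE 0.68, edgeR adjusted p = 9.1e-07), and ECs were above MNCs by 2.19 (SE 0.59, edgeR adjusted p = 0.00369). The implied length was 3628 ± 153 bases in 8 ECs and 3172 ± 161 in 10 MSCs, ranges that overlapped (exact permutation p = 0.000137).

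Thpo, on the minus strand of chromosome 16 from 20724454 to 20734511, was read mainly in MSCs and at low levels. Its RPKM was 2.32, 1.42, 0.04, 0 and 3.04 in Flt3+/+ and 7.24, 1.44, 1.65, 3.72 and 0 in Flt3 ITD/ITD MSCs, so that 7 of 10 MSC libraries held more than 3 counts and 5 held at least 100. Among ECs only Flt3+/+ library 4 was above the floor, with 17 counts, and no MNC library had more than 1. Its log2 difference of ECs from MSCs was -6.27 (SE 1.39, edgeR adjusted p = 0.00123), which became -8.06 without Flt3+/+ EC library 4 and -7.07 without Flt3 ITD/ITD EC library 4. That call was lost in Flt3+/+ libraries alone (edgeR adjusted p = 0.146). Without either EC library, the others of its group held at most 1 count of Thpo each, so that the size of -8.06 and -7.07 is not measured. The 8 MNC libraries held 1 count of Thpo in all, and mean CPM in MSCs was 703 times theirs, with a 95% exact Poisson interval of that count from 126 to 27785, a difference that edgeR called as well (adjusted p = 0.00023). ECs and MNCs were both at or under the floor in nearly every library, so that no fold is given.

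The order of the 6 groups by mean RPKM differed from gene to gene. For Cxcl12 it was Flt3 ITD/ITD MSCs, Flt3+/+ MSCs, Flt3+/+ ECs, Flt3 ITD/ITD ECs and then MNCs. For Kitl and Vcam1 both EC groups came before both MSC groups, and for Csf1 and Thpo both MSC groups came before both EC groups. None of the 30 pairs of neighboring groups passed an exact two-sided permutation test after adjustment over the 30 (smallest adjusted p = 0.159), and 6 had an unadjusted exact p below 0.05. The smallest p the test allows is 0.00794 for 5 against 5 libraries, 0.0159 for 5 against 4 and 0.0286 for 4 against 4. Adjusted over the 30, a single pair at the smallest of these cannot pass on its own. That none passed therefore does not show that neighbors were alike. Groups that did not overlap among these neighbors were Flt3 ITD/ITD ECs and MNCs for Cxcl12 (exact p = 0.0159) and Flt3+/+ ECs and Flt3 ITD/ITD MSCs for Kitl (exact p = 0.00794).

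The genotype comparison asked whether niche factors were altered in mice with the duplication. With edgeR, none of the 6 genes was called in ECs, MSCs or MNCs, where 0.0081%, 0.0295% and 0.0144% of all genes tested were called. DESeq2 called none of the 6 either, where it called 362, 193 and 322 of all genes in ECs, MSCs and MNCs. At an unadjusted p below 0.05, ECs had 0 of the 6, MSCs 2 and MNCs 0, while the shares of all genes were 4.99%, 4.24% and 10.4%, respectively. Il7 and Thpo in ECs and Kitl and Thpo in MNCs fell under the filter on low counts, and their values come from the fit without it.

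In MSCs, the 2 genes below 0.05 were Cxcl12 and Vcam1, and both were higher in Flt3 ITD/ITD mice. Mean Cxcl12 was 560 ± 319 RPKM (SD, n = 5) against 223 ± 109, with 4 of the 5 mutant values higher than any of the 5 wild-type values. The log2 fold change was 1.42 (SE 0.52, edgeR adjusted p = 0.999; over the alternatives the adjusted p ran from 0.276 to 1). On RPKM the exact two-sided permutation p was 0.0476, or 0.743 after adjustment over the 18 comparisons of 6 genes in 3 populations. On log2 RPKM the exact permutation p was 0.0714. Without Flt3 ITD/ITD MSC library 4, which had the highest Cxcl12, the log2 fold change was 0.99 and its unadjusted p no longer below 0.05. For Vcam1 the log2 fold change was 1.29 (SE 0.53, edgeR adjusted p = 0.999; over the alternatives from 0.378 to 1), with 2 of 5 mutant values higher than any wild-type value. Flt3 ITD/ITD MSC library 5, which carried the most leukocyte RNA, lay above all Flt3+/+ libraries for Cxcl12 (767) and within their range for Vcam1 (31.4), and without it the log2 fold changes were 1.36 and 1.43. For Vcam1 the exact two-sided permutation p on RPKM was 0.0952. Leaving out 1 MSC library gave Vcam1 log2 fold changes from 0.97, without Flt3 ITD/ITD library 1, to 1.65, without Flt3+/+ library 4. The unadjusted p of Vcam1 was above 0.05 in 5 of these 10 fits, without Flt3+/+ library 1 (1.15), 3 (1.24) or 5 (1.08) or Flt3 ITD/ITD library 1 or 4 (1.09). Neither gene was called, which does not show that they did not differ.

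Markers of other cell types were set beside these values. Over all genes tested in MSCs the median log2 fold change was 0.03, and 4.24% had an unadjusted p below 0.05. Of the mural markers tested in MSCs, 4 of 4 had a log2 fold change above 0 (median 1.001), and their summed RPKM ran from 10.8 to 152 in wild-type and from 7.97 to 162 in mutant libraries. Of the cartilage markers 4 of 4 were below 0 (median -0.56), with sums of 600.3 to 1175 and 362 to 861, and of the osteoblast markers 3 of 4 (median -0.88), with sums of 1793 to 3316 and 154 to 2826. The sums overlapped between genotypes in each list and none of these markers was called by edgeR, with 1 cartilage marker at an unadjusted p below 0.05. Of the 10 mesenchymal markers, 4 were above 0 and 6 below (median -0.22), with 2 at an unadjusted p below 0.05 and none called. The part of mural cells, cartilage cells or osteoblasts in the Cxcl12 and Vcam1 values was not tested.

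Other members in MSCs had log2 fold changes of 0.29 (Kitl, SE 0.79), -1.93 (Il7, SE 1.83), -0.15 (Csf1, SE 0.39) and 1.13 (Thpo, SE 1.52). In ECs the values for genes above the filter were -0.12 for Cxcl12 (SE 0.19), 0.32 for Kitl (SE 0.25), -0.51 for Vcam1 (SE 0.36) and -0.39 for Csf1 (SE 0.93), all with an edgeR adjusted p of 1. Cxcl12 and Kitl were thus measured with the smallest errors in ECs, where their group means were 175 and 175 RPKM for Cxcl12 and 181 and 223 for Kitl in Flt3+/+ and Flt3 ITD/ITD mice, respectively. In MNCs, Cxcl12 had a log2 fold change of 4.30 (SE 2.07, edgeR adjusted p = 0.501), carried by Flt3 ITD/ITD library 2, and Vcam1 one of 0.16 (SE 0.51). Erythroid markers summed to 50.6, 20656, 81014 and 73003 RPKM in Flt3+/+ MNCs and to between 1217 and 11746 in Flt3 ITD/ITD MNCs, and the part of this spread in the MNC values was not tested.

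**Figure D3:**
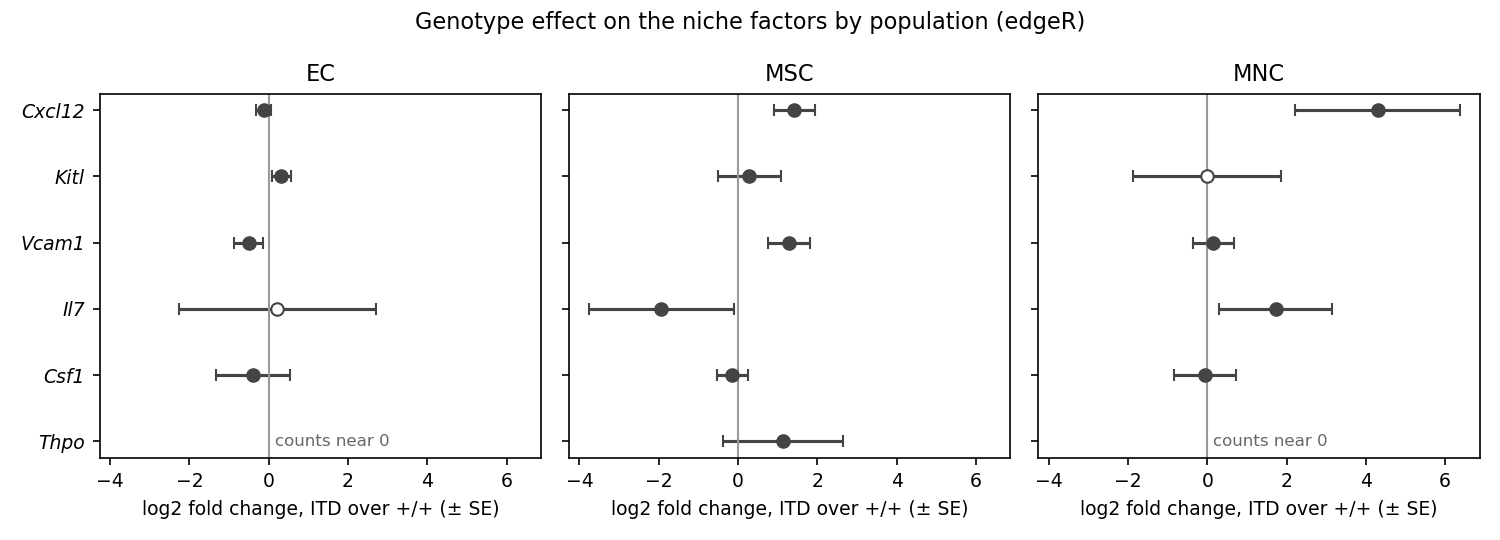
Log2 fold change of Flt3 ITD/ITD over Flt3+/+ libraries (horizontal axis) with its standard error for each gene, by population (edgeR; open circles, value from the fit without the filter on low counts; Thpo in ECs and MNCs had too few counts to draw). Cxcl12 and Vcam1 in MSCs lie at 1.42 and 1.29, and none of the points passed the adjusted threshold.

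The genotype effect was also compared between populations by the interaction term of a fit to all 28 libraries. None of the 6 genes passed an adjusted p of 0.1 by edgeR or DESeq2 in any of the 3 comparisons, where 0.379%, 0.0118% and 0.00592% of all genes did by edgeR for ECs against MSCs, ECs against MNCs and MSCs against MNCs. By DESeq2, 961, 517 and 388 of all genes passed in the same order. At an unadjusted p below 0.05 there was 1 gene in each comparison with ECs, against 10.6% and 8.23% of all genes, and 0 in the other, against 5.94%. Vcam1 had a log2 difference of -1.84 between its effects in ECs and in MSCs (SE 0.71, edgeR adjusted p = 0.298; over the alternatives from 0.151 to 0.485). Its mean RPKM was 66.8 against 97.0 in ECs and 53.6 against 24.3 in MSCs. Cxcl12 had a difference of -4.42 between its effects in ECs and in MNCs (SE 1.67, edgeR adjusted p = 0.455). With 1 library left out, this Cxcl12 difference ran from -8.75 to -0.49. Flt3 ITD/ITD MNC library 2 held 1322 counts of Cxcl12, and the others of that group at most 43. The interaction comparisons share libraries with those within each population.

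Across the 10 libraries of a population, the genes were then set against one another after the genotype means had been removed. Of 25 pairs, 10 in ECs and 15 in MSCs, none passed a permutation test after adjustment, and 2 had an unadjusted p of Pearson's r below 0.05. Cxcl12 and Vcam1 in MSCs had Pearson's r of 0.70 (permutation p = 0.0357, adjusted p = 0.514) and Spearman's rho of 0.64 (permutation p = 0.0677, adjusted p = 0.67), and r was 0.38 without the 2 libraries farthest from the Cxcl12 median. Cxcl12 and Kitl in ECs had r of -0.56 (permutation p = 0.0411, adjusted p = 0.514) and rho of -0.38 (permutation p = 0.246, adjusted p = 0.712), and r was 0.22 without the 2 farthest libraries, so that the sign rested on them.

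**Figure D4:**
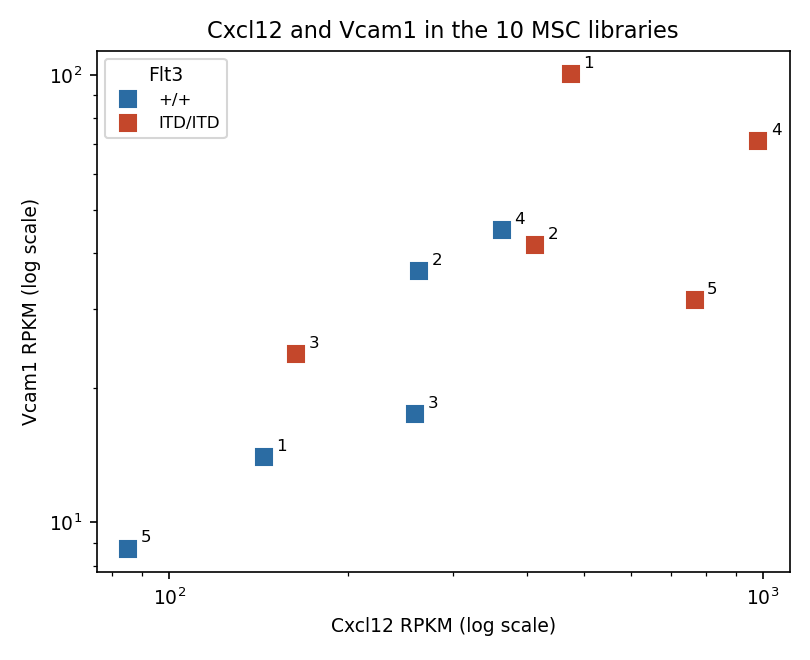
Vcam1 RPKM against Cxcl12 RPKM (both log scales) in the 10 MSC libraries, with the replicate number beside each point (blue, Flt3+/+; red, Flt3 ITD/ITD). Flt3+/+ library 5 is lowest for both genes, at 85.2 and 8.73, and Flt3 ITD/ITD library 1 is highest for Vcam1 at 100.2.

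For each member but Thpo, whose mean RPKM lay under 1, the genes that most resembled it were sought by Pearson's r of log2(RPKM + 1) over the 28 libraries. For Cxcl12 they were Sparc (r = 0.96), a matrix glycoprotein, Gja1 (0.95), a gap junction protein, and Tgfbr3 (0.95), all present in both stromal populations. For Kitl they were Lims2 (0.97), Tek (0.96), the endothelial receptor of angiopoietins, and Sdpr (0.96). For Vcam1 they were Aplp2 (0.91), Mylk (0.90) and Fmo2 (0.90), and for Csf1 Ecm1 (0.95), Aebp1 (0.94) and Abi3bp (0.93), which encode matrix-associated proteins of mesenchymal cells. Il7 had no gene above 0.78 (Zfp300). Within the population where each was highest, the leading genes were Xaf1 for Cxcl12 (0.96, 10 MSC libraries), Zfp326 for Kitl (0.96, 10 ECs), Slc25a40 for Vcam1 (0.95, 10 ECs), Igfbp6 for Il7 (0.98, 10 ECs) and Rbm3 for Csf1 (0.92, 10 MSC libraries), of which the last 2 came after a transcript without a gene name. These points share libraries and depth, and the values are descriptions. Each r was picked from the top of 13726 genes and was not tested, and over 10 libraries such a pick is high by selection alone. Il7 had a mean RPKM of 5.31 in ECs and 4.89 in MSCs. Its median in ECs was 0.025 and its maximum 24.8, so that its r there rests on few libraries.

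Receptors of Cxcl12, Kitl, Vcam1, Il7 and Csf1 were set beside them, from a list of 10 of which 9 were in the table. Of the 9, 2 were called higher in ECs than in MNCs and 6 lower, where 23.1% and 22% of all genes were, and the same counts held for MSCs, where 22.2% and 22% were, with median log2 differences of -3.57 and -6.39 where the median over all genes was 0 and -0.02. Csf1r, the receptor of Csf1, had 4 counts over all 10 EC libraries and a log2 difference of MSCs from MNCs of -11.87, and its mean RPKM in MNCs was 32.8 for wild-type and 56.8 for mutant mice. In Flt3 ITD/ITD MSCs its mean RPKM was 0, and no MSC library held more than 40 counts. The size of -11.87 is therefore not measured. The log2 differences of Il7r were -7.97 in ECs and -8.20 in MSCs, and Itgb7 had one of -10.06 in ECs. The 2 that were higher in stroma were Itgb1 and Ackr3, which scavenges Cxcl12 and had 5 counts over all 8 MNC libraries. Between ECs and MSCs, Ackr3 was lower in ECs, at -2.88, as was Itgb7, at -3.51, while Il2rg, the common gamma chain of the Il7 receptor, was higher by 10.46 and Cxcr4 by 3.71. Ackr3 had a mean RPKM of 300.4 and 392 in Flt3+/+ and Flt3 ITD/ITD MSCs and 51.7 and 54.9 in ECs. Between genotypes none of the receptors was called. In MNCs 3 of 8 had an unadjusted p below 0.05, where 10.4% of all genes did. Of the 3, Csf1r (log2 fold change 0.62, edgeR adjusted p = 0.419) and Il7r (-0.96, edgeR adjusted p = 0.447) had the smallest.

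**Figure D5:**
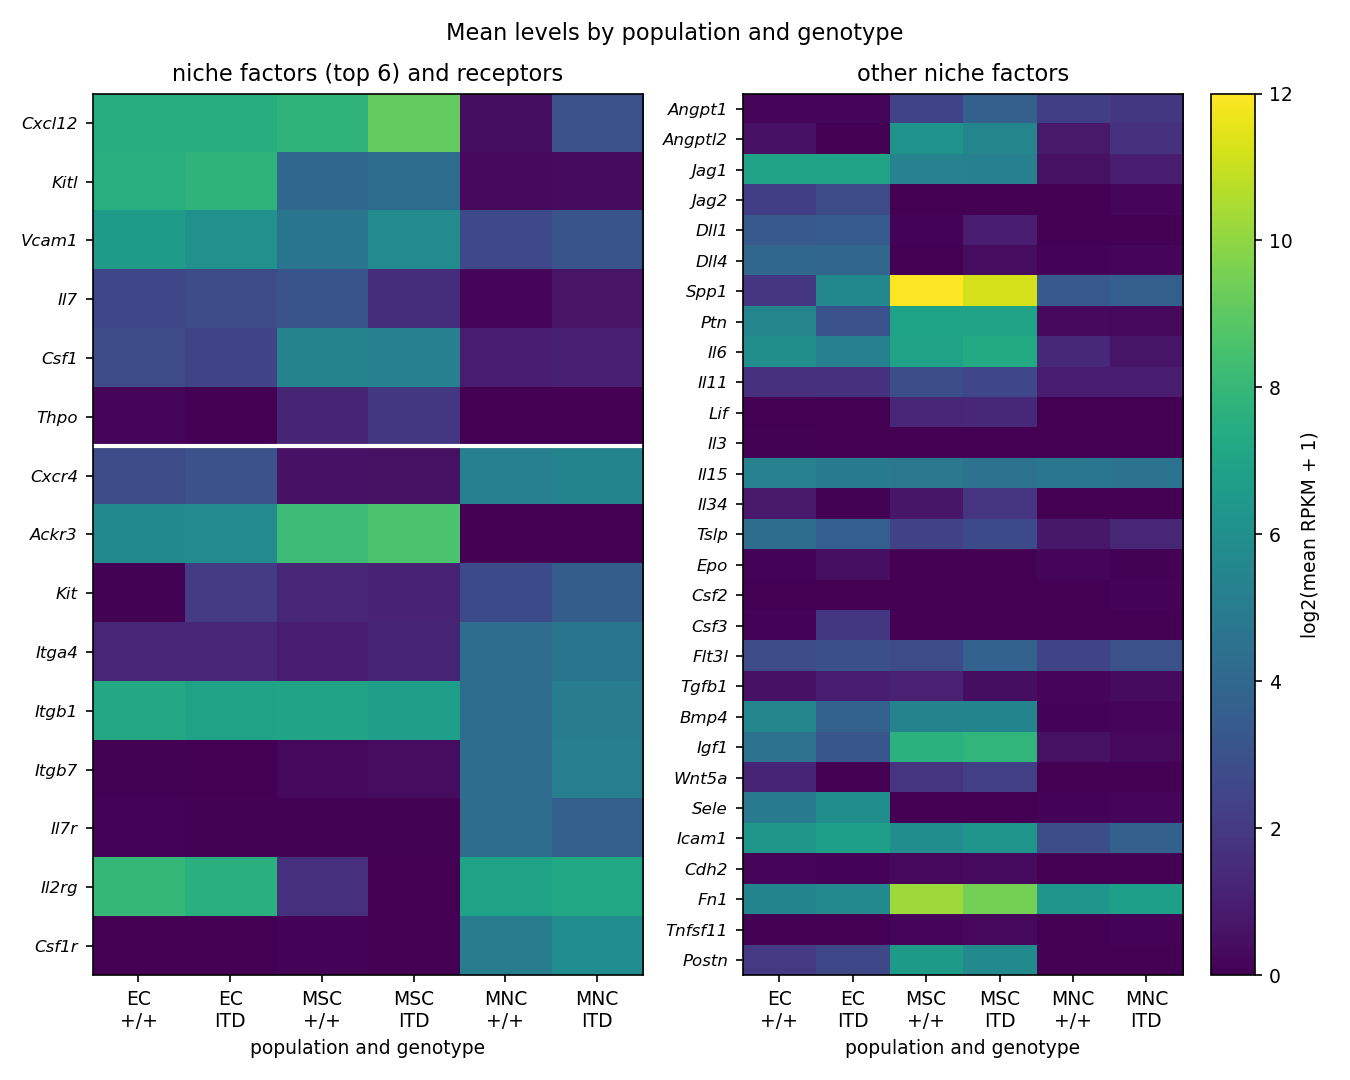
Mean level (color, log2 of mean RPKM + 1, from 0 to 12) of the 6 genes and 9 receptors (left) and of 29 other niche factors (right) in the 6 groups. Cxcr4, Il7r, Csf1r and Itgb7 are brightest in MNCs, Spp1 and Fn1 in MSCs, and Sele, Dll4 and Jag2 in ECs.

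Of 29 other niche factors, 24 could be tested between populations. Compared with MSCs, ECs had 5 higher and 10 lower, where 16.3% and 16.6% of all genes were, with a median log2 difference of -1.61 against -0.01 over all genes. Called higher in ECs were Sele, an endothelial selectin, and the Notch ligands Jag2 and Dll4 (log2 difference 8.16). Sele and Jag2 had only 1 and 4 counts over all 10 MSC libraries, and their CPM in ECs was 34398 times (95% exact Poisson interval of the MSC counts 6174 to 1358660) and 1278 times (499 to 4692) that in MSCs. Called higher in MSCs were Angptl2 (-9.12), Spp1, which encodes osteopontin (-8.38), and Angpt1, the ligand of Tek (-6.56). Against MNCs, 16 were higher and 3 lower in ECs, where 23.1% and 22% of all genes were, with a median of 3.84 against 0. In MSCs 17 were higher and 2 lower, where 22.2% and 22% of all genes were, with a median of 5.28 against -0.02. No other niche factor was called between genotypes. Those with the smallest p were Bmp4 in ECs (log2 fold change -1.82, edgeR adjusted p = 0.72) and Angpt1 (1.52, edgeR adjusted p = 0.999) and Fn1 (-0.70, edgeR adjusted p = 0.999) in MSCs.

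Of 13 genes listed for the perivascular stroma known for Cxcl12 and Kitl, 3 had a mean RPKM under 1 in ECs and 2 in MSCs. Among them were Cspg4 in ECs (0.11) and Nes in MSCs (0.057). Lepr, the leptin receptor, averaged 46.8 ± 23.0 RPKM (SD) across 10 ECs, 52.7 ± 17.5 across 10 MSCs and 2.89 ± 0.63 across 8 MNCs. Of 13 such genes 12 were tested, and 4 were higher and 3 lower in ECs than in MSCs, where 16.3% and 16.6% of all genes were. Those higher in ECs were led by Nes (6.17), Mcam (4.30) and Lpl (1.58), and those lower were Cspg4 (-8.21), Cdh11 (-3.51) and Ebf1 (-1.09). The list as a whole thus did not set MSCs apart from ECs. None was called between genotypes in MSCs, where Ebf1, a transcription factor of Cxcl12-abundant stroma (0.79, edgeR adjusted p = 0.999), and Lpl (1.03, edgeR adjusted p = 0.999) had the smallest p. Of the 10 tested there, 8 had a value above 0 and 2 below, with a median of 0.44 against 0.03 over all genes.

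Promoters were looked up in RefSeq for GRCm38.p6 and found for 4 members, Cxcl12, Kitl, Csf1 and Thpo. The 250 bases before the start are shown for Cxcl12 (chr6:117168285-117168534, plus strand), Kitl (chr10:100015571-100015820, plus strand) and Csf1 (chr3:107760470-107760719, minus strand), as one gene shared by the stromal populations, one highest in ECs and one highest in MSCs. Capitals mark matches on either strand to the GC box, TATA box, ETS, NF-kB and EBF motifs.
Cxcl12: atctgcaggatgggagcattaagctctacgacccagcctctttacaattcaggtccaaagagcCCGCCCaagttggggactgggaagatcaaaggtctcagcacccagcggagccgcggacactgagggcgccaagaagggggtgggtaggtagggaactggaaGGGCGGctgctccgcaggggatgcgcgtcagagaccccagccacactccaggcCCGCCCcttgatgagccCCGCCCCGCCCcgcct
Kitl: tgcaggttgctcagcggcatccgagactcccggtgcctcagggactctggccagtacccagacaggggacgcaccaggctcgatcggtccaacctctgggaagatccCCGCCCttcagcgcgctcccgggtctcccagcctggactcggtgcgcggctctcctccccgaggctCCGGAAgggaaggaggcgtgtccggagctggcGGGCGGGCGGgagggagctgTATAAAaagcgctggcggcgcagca
Csf1: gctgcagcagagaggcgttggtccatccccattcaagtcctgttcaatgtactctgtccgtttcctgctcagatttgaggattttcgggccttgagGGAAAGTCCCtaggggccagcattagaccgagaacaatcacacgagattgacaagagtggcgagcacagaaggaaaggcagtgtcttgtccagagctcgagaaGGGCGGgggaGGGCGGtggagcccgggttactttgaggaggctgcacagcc
The GC box (GGGCGG) was matched 5 times in Cxcl12, 3 times in Kitl and 2 times in Csf1, with some overlapping one another, and 32.7% of 32851 promoter windows of the same length held at least 1. Kitl had the only TATA box (TATAAA), 25 bases before its RefSeq start (12.4% of windows), and an ETS match (CCGGAA) 77 bases before it (12.03%). In GENCODE the gene begins earlier, at 100015630, so that both matches lie within it there. Csf1 had the only NF-kB match, 154 bases before its start (1.41%), and the EBF motif was in none of the 3 (0.779%). GC content was 64.4% for Cxcl12, 69.2% for Kitl and 56.4% for Csf1, where the median window had 52.4%. A match describes these letters and not the binding of a factor.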

How the data were processed

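RNA of sorted cells had been amplified and sequenced as 51-base single-end reads. Per the labels and the study's methods, the authors aligned reads with Bowtie and quantified them with RSEM against UCSC transcripts (mm10), discarding multi-mapping reads, and deposited an estimated count and an RPKM value per gene and library. Versions were not given in the sources used here. Counts were rounded to whole numbers. RSEM divides reads among transcripts, so that an RPKM depends on a transcript length that can differ between libraries.

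The members and the gene lists were chosen with earlier results of these data known. Groups follow the labels. Counts were normalized with TMM, filtered by filterByExpr and tested two-sided with edgeR's quasi-likelihood test (edgeR 4.0.16, R 4.3.3), with Benjamini-Hochberg adjustment over all genes. Genotypes were compared within each population, and populations and interactions in 1 model of all libraries. A call needed an adjusted p below 0.1 and a 2-fold ratio of mean RPKM (the interaction, the adjusted p alone). Alternatives were DESeq2 1.42.0, RLE scaling, no filter, leaving out each library, the replicate number as a block, a leukocyte covariate, 1 model for the genotype comparisons, and each genotype alone. Single values were compared by permutation of RPKM (scipy 1.17.1), exact for groups under 10. The fits were tested on simulated data. All 6 members were named. From each list, up to 3 called genes in each direction with the greatest log2 difference were eligible to be named or, where none was called, the 2 with the smallest p, and for likeness the 3 genes with the highest r among those with a mean RPKM of at least 1. Implied length in bases is the count over the product of library total and RPKM, with the RPKM scale removed. One gene of the receptor list is not reported here.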

Additional observations from a re-analysis of the deposited data

Results flagged for a closer look

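In 10 of 35 groups of 4 or 5 libraries, 1 library lay farther from the others than the spread of the rest allowed. The rule is set to flag 5% of groups by chance. That share does not hold where most libraries are at or near 0, because a single read can then meet the rule. The number flagged is therefore no measure of an excess. Among MNCs these were Cxcl12 in Flt3+/+ library 3 (RPKM 1.33, others at most 0.02) and Flt3 ITD/ITD library 2 (25.9, others at most 1.22), Kitl in Flt3 ITD/ITD library 2 (1.1, others 0), Il7 in Flt3+/+ library 1 (0.57) and Thpo in Flt3+/+ library 4 (0.02, from 1 count). Among ECs they were Il7 in Flt3+/+ library 3 (24.2) and Flt3 ITD/ITD library 5 (24.8) and Thpo in Flt3+/+ library 4 (0.58, from 17 counts) and Flt3 ITD/ITD library 4 (0.04, from 1 count). In Flt3 ITD/ITD MSCs it was Il7 in library 3 (7.65, others at most 1.81).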

How the results depend on the processing

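Numbers of genes called between genotypes depended on the tool. In ECs (1 gene) they were 362 with DESeq2, 275 with 1 model, and 0 without the filter or with the leukocyte covariate. In MSCs (4) they were 193 with DESeq2, 18 with 1 model, and 2 without the filter or with the covariate. In MNCs (2) they were 322, 6 with 1 model and 1 with the covariate. For the interaction, DESeq2 called 961 (edgeR 64, 12 without the filter), 517 (2) and 388 (1). In Flt3 ITD/ITD libraries alone, 3599 genes differed between ECs and MSCs (5551 in all) and 4839 between MSCs and MNCs (7478). Leaving out 1 library gave 0 to 0, 0 to 2 and 0 to 1 genes between genotypes and 3 to 125, 2 to 12 and 1 to 4 for the interaction. Libraries of the same replicate number were weakly correlated after group means were removed, at -0.0716 to 0.0661. Between genotypes, 3 of 5 wild-type EC libraries, 3 of 5 MSC and 1 of 4 MNC libraries correlated best with the mutant library of their own number. Whether a number marks libraries handled together was not tested. With the number as a block the counts were 0, 0 and 0 genes between genotypes and 1 for the EC and MSC interaction. Il7 was then called between MSCs and MNCs (5.10, edgeR adjusted p = 0.0867) and no longer between ECs and MNCs (3.81, edgeR adjusted p = 0.268).

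Some log2 values changed sign, and the cause was not tested. They were, between genotypes, Il7 in ECs with the covariate (-1.94), Il7 in MSCs with the block (0.00484), and Kitl in MNCs with 1 model (0.0126). The difference of Kitl in MNCs was 0.045 on RPKM and -0.00646 on log2(RPKM + 1). Between ECs and MSCs they were Cxcl12 in Flt3+/+ libraries alone (0.34) and Il7 with the block (-1.29) or in Flt3+/+ libraries alone (-0.76). For the interaction they were Kitl (-0.0225 with DESeq2, -0.0227 with RLE, -0.0957 with the block) and Csf1 with the block (0.0556 and 0.0347). With a pseudocount of 0.1 the r of Kitl in MSCs was -0.0361 with Il7 and 0.0311 with Thpo.

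Leaving out 1 library, genotype log2 values ran from -2.31 to 7.05 for Il7 and -0.69 to 0.48 for Csf1 in ECs, from -0.26 to 0.62 for Kitl and -0.44 to 0.18 for Csf1 in MSCs, and from -7.60 to 0.66 for Kitl, -0.13 to 0.53 for Vcam1 and -0.78 to 0.23 for Csf1 in MNCs. Il7 between ECs and MSCs ran from -3.22 to 1.09. Interactions of ECs and MSCs ran from -0.32 to 0.59 for Kitl, -0.42 to 8.94 for Il7 and -0.63 to 0.61 for Csf1, those of ECs and MNCs from -0.34 to 8.14 for Kitl, -4.22 to 5.24 for Il7, -0.65 to 0.50 for Csf1 and -3.75 to 1.66 for Thpo, and those of MSCs and MNCs from -7.19 to 1.07 for Cxcl12, -0.36 to 8.12 for Kitl and -0.39 to 0.60 for Csf1. RPKM differences ran from -31.4 to 13.2 for Cxcl12, -3.91 to 5.70 for Il7, -2.54 to 1.31 for Csf1 and -0.145 to 0.0005 for Thpo in ECs, from -2.50 to 5.59 for Kitl and -12.1 to 3.30 for Csf1 in MSCs, and from -0.23 to 0.137 for Kitl, -0.256 to 0.424 for Csf1 and -0.00667 to 0 for Thpo in MNCs. Few counts limit Il7 and Thpo, and Kitl and Cxcl12 in MNCs.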
